A study of Mus musculus with 2 samples.

Results

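Lymphatic endothelial cells (LECs) with transcripts of Duox2, Duoxa2 or Adamtsl1 were examined in tumour-draining inguinal lymph nodes of mice. Members were chosen by their own UMIs, the molecules counted for each gene in a cell. A cell needed at least 1200 UMIs, at least 200 genes and at most 25% of UMIs from mitochondrially encoded genes. It also needed at least 2 Prox1 UMIs, at least 2 UMIs of Duox2, Duoxa2 and Adamtsl1 together, at most 1 of Cd79a and Cd3e together and at most 1 of Madcam1, Coch and Ccl20 together. This gave 133 members among 856 Prox1 cells, out of 8091 cells that passed the quality limits. They comprised 37 of 210 Prox1 cells in the ATG5 KO library, or 17.6% with an exact Clopper-Pearson 95% interval of 12.7 to 23.5, and 96 of 646 in the WT library, or 14.9% with an interval of 12.2 to 17.8.

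The study compared ATG5 LEC-KO mice, in which the autophagy gene Atg5 is deleted in LECs, with wild-type mice. The KO library was made from 9 tumour-draining nodes and the WT library from 13, in each case combined into 1 sample. With 1 library per genotype, no difference below has a replicate check and no test was made. The input was a mixture of sorted CD31+ cells that lacked CD45 and Ter119, the endothelial gate, with sorted CD45+ cells that lacked CD31 and Ter119. The Cre line, the tumour, the strain and the age of the animals are not given in the sources used here, and both libraries mixed male and female cells.

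LECs line the sinuses of the lymph node, and Prox1 is the transcription factor that sets their identity. Ceiling LECs of the subcapsular sinus carry Ackr4, a receptor that scavenges the chemokine Ccl21, floor LECs carry Madcam1, and LECs of the medullary and paracortical sinuses carry Lyve1, Mrc1 and Reln. Duox2 is an oxidase that releases hydrogen peroxide at the cell surface and is best known from thyroid and gut epithelium. Duoxa2 is the partner protein that lets Duox2 leave the endoplasmic reticulum. Adamtsl1 is a secreted matrix protein that resembles the ADAMTS proteases but lacks their protease domain.

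Duox2 and Duoxa2 are neighbours that are transcribed away from each other, and their promoters are shown because both genes belong to the rule by which members were chosen. In mm10 with GENCODE M21, Duox2 spans chr2:122279247-122298449 on the minus strand and Duoxa2 chr2:122298900-122302885 on the plus strand. Their starts lie 451 bases apart in GENCODE and 673 bases apart in RefSeq. The RefSeq windows on GRCm38.p6 run from 250 bases before to 50 bases after each start. They are chr2:122298178-122298477, read on the minus strand, for Duox2, and chr2:122298650-122298949, read on the plus strand, for Duoxa2. They are printed 5′ to 3′ in lower case with motif matches in capitals.
Duox2: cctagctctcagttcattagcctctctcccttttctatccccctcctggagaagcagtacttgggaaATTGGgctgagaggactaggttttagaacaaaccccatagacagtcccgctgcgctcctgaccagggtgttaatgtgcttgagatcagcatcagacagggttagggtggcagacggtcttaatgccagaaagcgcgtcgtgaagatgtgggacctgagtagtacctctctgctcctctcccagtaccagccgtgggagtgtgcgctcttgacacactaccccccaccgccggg
Duoxa2: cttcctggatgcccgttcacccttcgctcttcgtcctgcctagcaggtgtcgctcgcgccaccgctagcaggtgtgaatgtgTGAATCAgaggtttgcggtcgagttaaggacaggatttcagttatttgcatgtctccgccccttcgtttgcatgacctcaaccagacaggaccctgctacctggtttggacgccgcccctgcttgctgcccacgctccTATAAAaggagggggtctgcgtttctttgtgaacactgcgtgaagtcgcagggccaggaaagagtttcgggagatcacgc
The TATA box letters TATAAA, the CAAT box letters CCAAT and the AP-1-like letters TGANTCA, with any base at N, were searched on both strands. The capitals in the Duox2 window mark 1 match to the CAAT box letters, which lies on the other strand and so reads ATTGG here. The capitals in the Duoxa2 window mark 1 match to the AP-1-like letters, which has A at N. After it they mark 1 match to the TATA box letters, and no matches overlap. Among all 32817 promoter windows of this length, 13.6% held the TATA box letters, 37.4% the CAAT box letters and 7.81% the AP-1-like letters. Adamtsl1 spans chr4:85514172-86428385 on the plus strand in the same annotation.

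The libraries were close in depth, with 23089918 UMIs in the KO library and 23649554 in the WT library, and 4198 and 3893 cells passed. The libraries shared 14 cell barcodes. Members were deeper than the other Prox1 cells. They had a median of 9347 UMIs in KO, against 7723 in the other KO Prox1 cells, and 10628 in WT, against 8618.5 in the other WT Prox1 cells. When the Prox1 cells of a library were split by UMIs into 3 equal groups, the share of members was 11.4%, 17.1% and 24.3% from the shallowest to the deepest group in KO, and 7.41%, 14.4% and 22.8% in WT. Median mitochondrial shares were 10.4% in KO members and in the other KO Prox1 cells, and 6.71% in WT members, against 6.69% in the other WT Prox1 cells. Among members assigned to a sex by Xist and Y-linked transcripts, 59.4% were female in KO and 32.6% in WT. Scrublet called no member a doublet. It called 0.738% of all KO cells and 0.719% of all WT cells.

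The LEC label held for the members by their defining genes. Levels are given as CPM, the UMIs of a gene per 1000000 UMIs of the group, without mitochondrially encoded genes. Prox1, which was part of the choice, stood at 1307 CPM in KO members against 1379 in the other KO Prox1 cells, and at 1381 CPM in WT members against 1391. Mmrn1, a secreted glycoprotein that marks lymphatic endothelium, stood at 4172 CPM in KO members against 2722 in the other KO Prox1 cells, and at 3408 CPM in WT members against 2797. It was found in 35 of 37 KO and 95 of 96 WT members. Flt4, the receptor for VEGF-C, had a UMI in 36 KO and 90 WT members. Transcripts of Ccl21a were scarce, with 3 UMIs over the KO members and 11 over the WT members. Marker lists of immune and stromal cells were low. The 10 B cell markers summed to 55.8 CPM in KO and 58.0 CPM in WT members, 13 T and NK cell markers to 21.7 and 11.4 CPM, 12 myeloid markers to 9.29 and 4.14 CPM, and 13 stromal markers to 80.5 and 31.0 CPM. B cell markers included Cd79a and T and NK cell markers included Cd3e, and both genes were part of the choice. Blood endothelial markers were not low: the 15 genes summed to 2763 CPM in KO members, against 1975 in the other KO Prox1 cells, and to 1678 CPM in WT members, against 1382. Of those compared, 8 of 9 were higher in KO members, 4 of them at least 2-fold, and 5 of 8 in WT members, 2 of them at least 2-fold, with median log2 ratios of 0.92 and 0.13. The KO sum rested largely on 2 members, which held 44.28% of the list UMIs of KO members. Among the other KO Prox1 cells, the 2 cells with 100 or more such UMIs held 11.69%. In WT, 1 such member held 10.55% and 1 such cell among the others 2.996%. The sums, counts of higher genes and median ratios above all include these cells. Sums without these cells are not given, so the KO excess is not shown for the members at large.

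The sum of the rule genes brought together cells with different transcripts, and the mixture differed between the libraries. These values describe the choice and support nothing further. In KO members, 13 UMIs of Duox2, 3 of Duoxa2 and 185 of Adamtsl1 were counted, and in WT members 111, 71 and 242. Duox2 was at 40.3 CPM in KO members (Poisson 95% interval 21.4 to 68.9), against 2.35 in the other KO Prox1 cells, and at 115 CPM in WT members (94.5 to 138), against 7.01. Adamtsl1 was at 573 CPM in KO members, against 17.2 in the other KO Prox1 cells, and at 250 CPM in WT members, against 9.42. B cells, which served as a measure of free RNA, held 2 Duox2 and 7 Adamtsl1 UMIs in 1553 KO cells and 0 Duox2 and 8 Adamtsl1 UMIs in 1336 WT cells.

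Members were split by which transcripts they carried. A UMI of Duox2 or Duoxa2 without Adamtsl1 was found in 1 KO and 28 WT members, and both kinds in 4 KO and 31 WT members. Adamtsl1 alone was found in 32 of 37 KO members, or 86.5% with an interval of 71.2 to 95.5, and in 37 of 96 WT members, or 38.5% with an interval of 28.8 to 49.0. The KO members were thus mostly Adamtsl1 cells, and the WT members were divided among all 3 kinds. Duox2 and Duoxa2 were seen together in 2 KO and 23 WT members, Duox2 without Duoxa2 in 2 and 28, and Duoxa2 without Duox2 in 1 and 8. The paralogue Duox1 had 0 UMIs in KO members and 1 in WT members, and Duoxa1, its partner, had 0 in both. Atg5 transcripts had 9 UMIs in KO members, or 27.9 CPM, and 38 in WT members, or 39.3 CPM. The counts come from 3′ ends, and which part of Atg5 was deleted is not given in the sources used here, so these counts do not check the genotype.

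**Figure D1:**
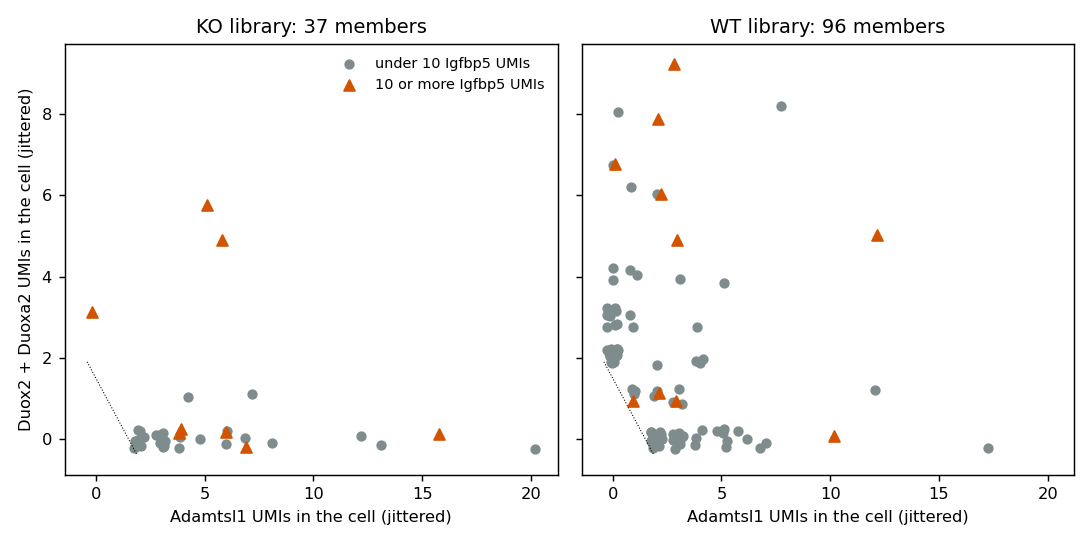
Each point is 1 member, placed by its Adamtsl1 UMIs (x axis) and its Duox2 plus Duoxa2 UMIs (y axis), with the KO library on the left and the WT library on the right; both axes are jittered and the dotted line marks the minimum of the sum. Of 37 KO members 32 lie in the bottom row without Duox UMIs, against 37 of 96 WT members, and triangles mark the 8 KO and 10 WT members with 10 or more Igfbp5 UMIs.

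By Igfbp5 and Ptgs1, cells at the edge of the rule were less marked than those with 3 or more rule UMIs. Cells with 1 rule UMI were not always below those with 2. The KO Igfbp5 level in cells with 1 came from 4.76% of them. In KO, 10 members had 2 rule UMIs and 27 had 3 or more, and 21 other Prox1 cells had 1. In WT, 33 members had 2, 63 had 3 or more, and 72 other Prox1 cells had 1. Igfbp5 stood at 0 CPM in KO members with 2 rule UMIs, 4197 CPM in those with 3 or more and 815 CPM in cells with 1, and in WT at 240, 1565 and 78.5 CPM. Ptgs1, by the same order of groups, stood at 0, 119 and 25.9 CPM in KO and at 17.8, 132 and 44.5 CPM in WT. No cell with floor markers that met the limit on Cd79a and Cd3e reached 2 rule UMIs in either library. There were 12 KO and 91 WT cells with floor markers, counted without that limit, so no share of them is given. Left out for Cd79a or Cd3e were 1 KO and 2 WT cells that reached the rule sum.

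Igfbp5, a secreted protein that binds insulin-like growth factors, headed the genes outside the rule that were higher in members of both libraries, ranked by the smaller of both ratios, and its transcripts sat in a minority of members. It stood at 3060 CPM in KO members, against 290 in the other KO Prox1 cells, a ratio of 10.6 with a counting interval of 9.37 to 11.9. It stood at 1101 CPM in WT members, against 85.5 in the other WT Prox1 cells, a ratio of 12.9 with an interval of 11.5 to 14.5. Igfbp5 belongs to the genes for which the subset was proposed from these libraries, so these ratios are no independent evidence. In KO, 8 members held all 988 Igfbp5 UMIs, with 15 to 438 in each. In WT, 10 members with 10 or more UMIs held 1055 of 1064, with 28 to 352 in each. The other 29 KO members had none, and 82 of the 96 WT members had none.

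Cells with 10 or more Igfbp5 UMIs, a limit chosen after the values were seen, made up 21.6% of KO members (interval 9.83 to 38.2), against 2.31% of the other KO Prox1 cells (0.633 to 5.81). They made up 10.4% of WT members (5.11 to 18.3), against 1.27% of the other WT Prox1 cells (0.513 to 2.60). In WT they were 8 of the 31 members with both kinds of rule transcript, 1 of the 28 with the Duox pair alone and 1 of the 37 with Adamtsl1 alone. In KO, the counts in those groups were 2 of 4, 1 of 1 and 5 of 32. None of the Mrc1 or floor-marker cells outside the members had 10 Igfbp5 UMIs in either library. Of the Ackr4 cells outside the members, 2 of 34 in KO had 10 or more, or 5.88% (0.720 to 19.7). In WT, 4 of 324 did, or 1.23% (0.337 to 3.13). Another 2 KO and 3 WT Prox1 cells with 10 or more lay outside all these groups.

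Ptgs1, which encodes the constitutive cyclooxygenase COX-1, was concentrated in the same cells in KO. It had 28 UMIs in 6 KO members, of which 26 lay in members with 10 or more Igfbp5 UMIs, and 89 UMIs in 29 WT members, of which 31 did. Its level was 86.7 CPM in KO members, against 17.2 in the other KO Prox1 cells, and 92.1 CPM in WT members, against 19.9, with ratios of 5.04 (2.78 to 9.24) and 4.62 (3.41 to 6.26). L1cam, a neural cell adhesion molecule, stood at 65.0 CPM in KO members, against 14.1 in the other KO Prox1 cells and 18.0 in B cells, and at 36.2 CPM in WT members, against 15.8 and 15.7. An L1cam UMI was found in 21.6% of KO and 18.8% of WT members, and after thinning to 3000 UMIs in 13.1% and 7.83%. B cells thinned the same way gave 4.45% in KO and 2.78% in WT. Ptgs1 and L1cam also belong to the genes for which the subset was proposed from these libraries, so their values are no independent evidence.

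A few members carried much blood endothelial RNA, which touched several of these genes. The 15 blood endothelial markers summed to 100 or more UMIs in 2 KO members, with 175 and 220, and in 1 WT member, with 171, while the median over members was 13 in each library. Flt4 had 1 and 0 UMIs in the KO cells and 0 in the WT cell. The 2 KO cells held all 42 UMIs of Vwf, all 42 of Inhba and all 46 of Mgp among KO members, and 23 of the 28 of Ptgs1. One of them held the 438 Igfbp5 UMIs. Scrublet called 0 members doublets, these cells included, and no other check for mixed cells was made. Without Prox1 cells of 100 or more such UMIs, an alternative added after the values were seen, the Igfbp5 ratio was 11.4 (9.71 to 13.5) in KO and 13.0 (11.5 to 14.6) in WT. The Ptgs1 ratio was then 1.64 (0.457 to 4.89) in KO and 4.29 (3.14 to 5.85) in WT. The KO interval then included 1. The L1cam ratio was 5.01 (2.49 to 10.2) in KO and 2.31 (1.48 to 3.55) in WT.

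**Figure D2:**
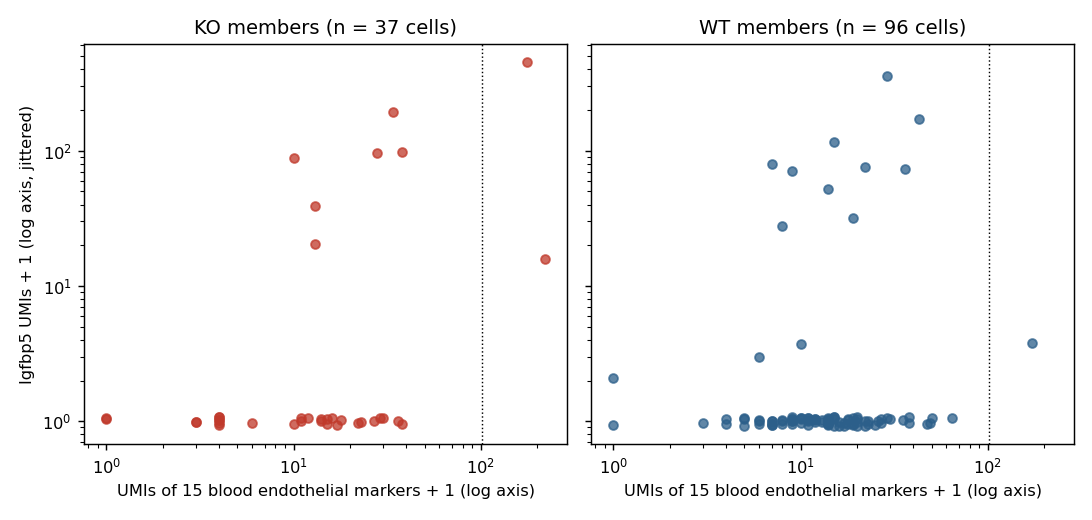
Each point is 1 member, placed by its summed UMIs of 15 blood endothelial markers plus 1 (x axis, log scale) and its Igfbp5 UMIs plus 1 (y axis, log scale, jittered), with KO members on the left and WT members on the right. Most members sit at 0 Igfbp5 UMIs, 8 KO and 10 WT members have 15 or more, and 2 KO and 1 WT members lie right of the dotted line at 100 marker UMIs.

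Members differed from the other Prox1 cells in a small set of genes that was shared by both libraries. Genes were compared where equal levels would give at least 10 UMIs in each group. Of 5939 such genes, 37 were at least 2-fold higher in members in both libraries (0.623%) and 56 were at least 2-fold lower in both (0.943%). The rule genes were kept in these counts, so Adamtsl1, by which cells were chosen, is among those higher. The median log2 ratio over all genes was -0.05 in KO and -0.00 in WT.

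Fbln2, the matrix protein fibulin-2, stood at 2267 CPM in KO members, against 804 in the other KO Prox1 cells, and at 1125 CPM in WT members, against 329. The ratios were 2.82 (2.56 to 3.10) and 3.42 (3.16 to 3.70), and a UMI was found in 83.8% of KO and 88.5% of WT members. Fbln2 was thus detected in most members, but its KO UMIs were uneven: 732 were counted over the 37 KO members and 412 over the 35 left without the cells rich in blood endothelial RNA, where the ratios were 2.05 in KO and 3.28 in WT. In KO Prox1 cells with 10 or more Igfbp5 UMIs Fbln2 stood at 7001 CPM, against 699 CPM in the remaining KO Prox1 cells, and in WT at 1138 CPM, against 449 CPM. Adamts5, a protease that cleaves aggrecan and versican, stood at 1360 CPM in KO members, against 376, and at 566 CPM in WT members, against 196, with ratios of 3.61 and 2.89. Nrp2, the neuropilin that binds VEGF-C and class 3 semaphorins, stood at 1131 CPM in KO members, against 408, and at 626 CPM in WT members, against 230, with ratios of 2.77 and 2.72. Serpine2, an inhibitor of thrombin and other serine proteases, was 3.30-fold higher in KO members and 2.92-fold higher in WT members. It was found in 64.9% of KO and 57.3% of WT members.

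Further genes were higher in members of both libraries, some of them in one kind of member. Slco2a1, the prostaglandin transporter, was 2.40-fold higher in KO members (1.74 to 3.28) and 3.49-fold higher in WT members (2.90 to 4.19). Lpl, lipoprotein lipase, was 2.84-fold and 4.70-fold higher, and Aldh2, mitochondrial aldehyde dehydrogenase, 2.68-fold and 2.54-fold higher. In WT, 1 of the 28 members with the Duox pair alone held Lpl UMIs, against 14 of 31 with both kinds and 17 of 37 with Adamtsl1 alone. The log2 ratio of Lpl in KO was -0.06 in cells with at most 10% of mitochondrial UMIs and -0.38 in male cells alone. Fgl2, a secreted fibrinogen-like protein, was 2.85-fold and 2.35-fold higher. Emcn, the sialomucin endomucin, was 2.51-fold and 2.98-fold higher, and its WT log2 ratio was -0.41 in members with no Duox pair UMI. Ttyh1, a membrane protein of neural cells, had ratios of 8.48 in KO and 3.36 in WT, Tfpi2, a serine protease inhibitor, of 3.03 and 2.60, and Pkhd1l1, found in 12 KO and 62 WT members, of 2.18 and 3.55. Ratios were, for Nrcam, an adhesion molecule of the L1 family, 2.30 and 3.20 (log2 ratio -0.37 in KO at the 10% limit and -0.14 in male KO cells), and for Mall 2.53 and 2.17. Tmem100, a membrane protein induced by BMP signalling in endothelium, had ratios of 4.98 in KO and 3.13 in WT, which were 2.90 and 2.53 without the cells rich in blood endothelial RNA.

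Some genes on the shared list rested on few cells in one library. Fndc1, a fibronectin-domain protein, had ratios of 7.92 in KO and 8.26 in WT, and Palld, an actin-binding protein, 4.62 and 3.96. Without the cells of 100 or more blood endothelial UMIs, the KO ratios were 0.946 for Fndc1 and 0.751 for Palld, and Mgp, the matrix Gla protein, had 0 UMIs left in KO members against 7 in the others. The WT ratios of Fndc1 and Mgp were then 8.23 and 15.1. Col5a2, a fibrillar collagen chain, had ratios of 7.68 in KO and 2.44 in WT, and the KO ratio was 5.11 without the cells rich in blood endothelial RNA. Its WT log2 ratio was -1.18 in female cells and -0.66 in members with no Duox pair UMI. Of the 60 Rsad2 UMIs in WT members 91.7% lay in 1 cell, and of the 99 Ccl2 UMIs in KO members 80.8% did.

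**Figure D3:**
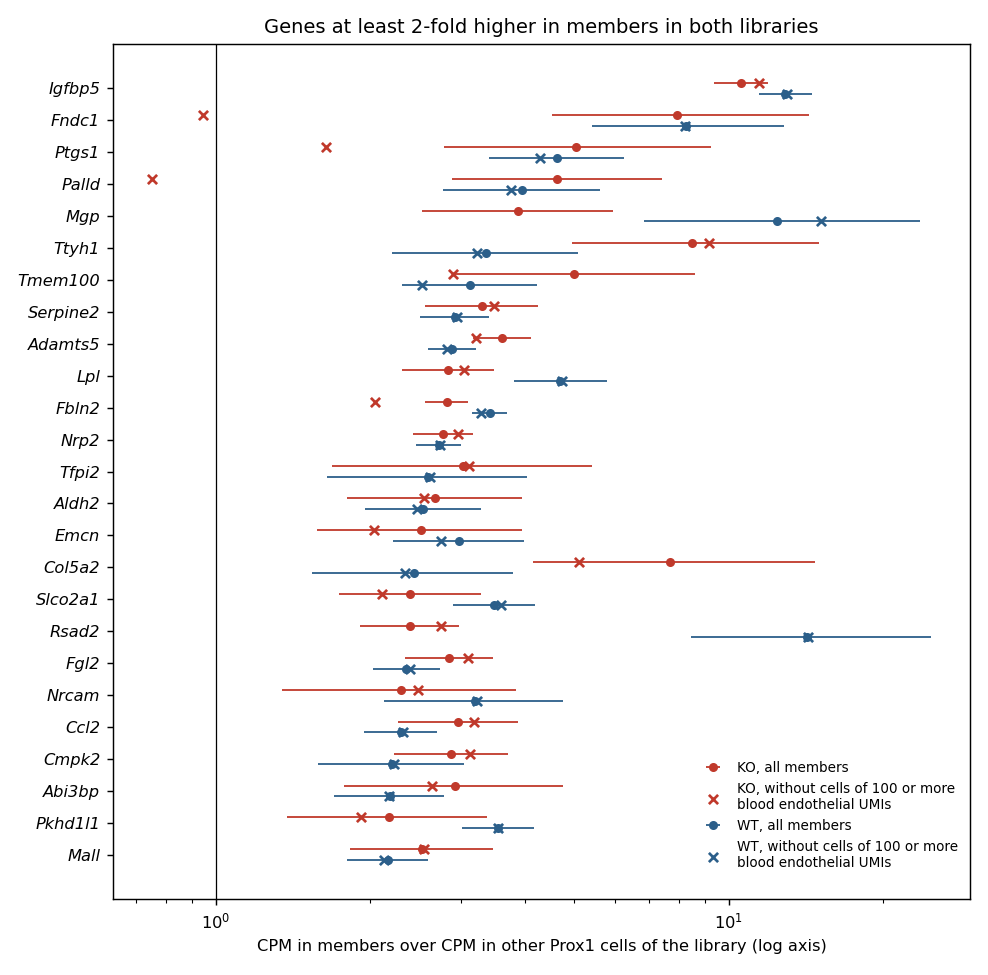
Ratios of CPM in members over CPM in the other Prox1 cells (x axis, log scale) are drawn for the 25 named higher genes, with KO above WT for each gene and lines for the 95% counting intervals. Crosses leave out Prox1 cells with 100 or more blood endothelial UMIs: the KO crosses of Fndc1 and Palld fall below 1 and that of Ptgs1 to 1.64, the KO cross of Mgp is not drawn because no UMI was left, and those of Igfbp5, Adamts5, Serpine2 and Nrp2 stay close to the points.

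The gene lists are described by how many of their compared genes were higher or lower. Of the ADAMTS family and fibrillin microfibril genes, 12 of 14 compared were higher in KO members and 11 of 15 in WT members, with median log2 ratios of 0.65 and 0.44, beside -0.05 and -0.00 over all genes. Adamts9 was 1.84-fold and 1.73-fold higher, Fbln5 1.66-fold and 2.00-fold, and Ltbp4 1.58-fold and 1.36-fold, whereas Ltbp2, which binds fibrillin, had ratios of 0.241 and 0.280. Of the basement membrane genes, 16 of 17 were higher in KO members and 16 of 19 in WT members, with medians of 0.36 and 0.34, of which 1 in KO and 0 in WT were 2-fold higher. Itga6, a laminin receptor subunit, had ratios of 2.26 and 1.95. Col15a1 ran the other way, with 0 UMIs in WT members against 504 in the other WT Prox1 cells, a ratio of at most 0.0281 at the floor of 3 UMIs over the group.

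Other genes around hydrogen peroxide, prostanoids and IGF had ratios in both directions. Of the NADPH oxidase family, Cyba, a subunit of the NOX enzymes but not of Duox, had ratios of 0.379 in KO and 0.321 in WT, and Rac1 of 1.06 and 0.972. The genes that handle hydrogen peroxide had median log2 ratios of -0.12 over 15 genes in KO and 0.01 over 15 in WT. Ptgs2, the inducible cyclooxygenase, had 0 UMIs in WT members, against 62 in the other WT Prox1 cells, and 0 in both KO groups. Ptger4, a receptor for prostaglandin E2, had a ratio of 0.122 in WT, and Tbxa2r, the thromboxane receptor, of 2.88 in WT. Igf1r, the receptor for IGF1, was lower in members, with ratios of 0.502 in KO and 0.420 in WT. Igfbp4 and Igfbp7 had ratios of 0.774 and 0.698 in KO and of 0.634 and 0.826 in WT. Igf1 itself had ratios of 2.86 in KO and 0.669 in WT, and the difference between the libraries was not tested.

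Floor LEC markers were lower in members. None of 5 compared in KO and of 6 in WT were higher, with median log2 ratios of -2.07 and -3.38. The limit on Madcam1, Coch and Ccl20 left out 0 cells that met the rest of the rule. However, the comparison cells held the floor-marker cells, which were picked by these genes. Floor-marker cells held 1198 of the 1895 list UMIs of the other KO Prox1 cells and 13243 of 16881 in WT. The list, with these genes, summed to 285 CPM in KO and 264 CPM in WT members. In Ackr4 cells it summed to 432 and 557 CPM. The genes lower in both libraries are given as a description. Glycam1, an L-selectin ligand, had 0 UMIs in KO members, against 500 in the other KO Prox1 cells, and 1 in WT members, against 5868. Il33 had 2 UMIs in KO members, against 55, and 3 in WT members, against 555. Clu, clusterin, had ratios of 0.145 in KO and 0.0885 in WT, Cyp1b1, a cytochrome P450, of 0.0956 and 0.0801, and Msr1, a scavenger receptor, of 0.0792 (0.0161 to 0.236) and 0.00320 (8.1e-05 to 0.0179). Against the other Prox1 cells without floor-marker or B and T cell UMIs, 29 genes in place of 56 were at least 2-fold lower in both libraries, of which 21 were among the 56.

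Within WT members, the cells with a Duox2 or Duoxa2 UMI and the cells without one differed in markers of the sinus compartments. Of 6023 genes, 233 were at least 2-fold higher in members with a Duox pair UMI (3.87%) and 231 at least 2-fold lower (3.84%). Duox2 and Duoxa2, which made the split, were kept in these counts. Ackr4 stood at 2304 CPM in WT members with the Duox pair, against 604 in those without, a ratio of 3.81 (3.30 to 4.43). An Ackr4 UMI was found in 24 of 28 members with the Duox pair alone, 23 of 31 with both kinds and 12 of 37 with Adamtsl1 alone. Lyve1 stood at 458 CPM in WT members with the Duox pair, against 3538 in those without, a ratio of 0.130 (0.114 to 0.148). Its UMIs were found in 1 of 28, 6 of 31 and 16 of 37 members by the same order.

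Of 6 listed markers of the medullary and paracortical sinuses compared, 5 were at least 2-fold lower in WT members with the Duox pair. The median log2 ratio of the 6 was -2.43. Among them, Mrc1, the mannose receptor, had a ratio of 0.159, Ptx3, a pentraxin, 0.215 and Stab2, a scavenger receptor for hyaluronan, 0.465. Reln, a secreted guidance protein that was not on this list, had a ratio of 0.102. Piezo2, a mechanically gated channel, had a ratio of 0.0923. Fbln2, Serpine2 and Fgl2, which were higher in members than in the other Prox1 cells, had ratios of 0.884, 0.983 and 1.02 and so were at like levels in both kinds of member, while Adamts5 and Nrp2 had ratios of 0.602 and 0.623.

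Immediate early genes, whose transcripts appear within minutes of a stimulus or of tissue handling, also differed within the WT members. All 24 compared were higher in WT members with the Duox pair, 13 of them at least 2-fold, with a median log2 ratio of 1.04. Nr4a1 stood at 810 CPM in WT members with the Duox pair, against 83.1 in those without, and Fos at 4407 CPM, against 1939. Median mitochondrial shares were 6.25% in members with the Duox pair alone, 6.55% in those with both kinds and 7.48% in those with Adamtsl1 alone, and their part in these ratios was not tested. The split could not be made in KO, where 5 members had a Duox pair UMI.

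**Figure D4:**
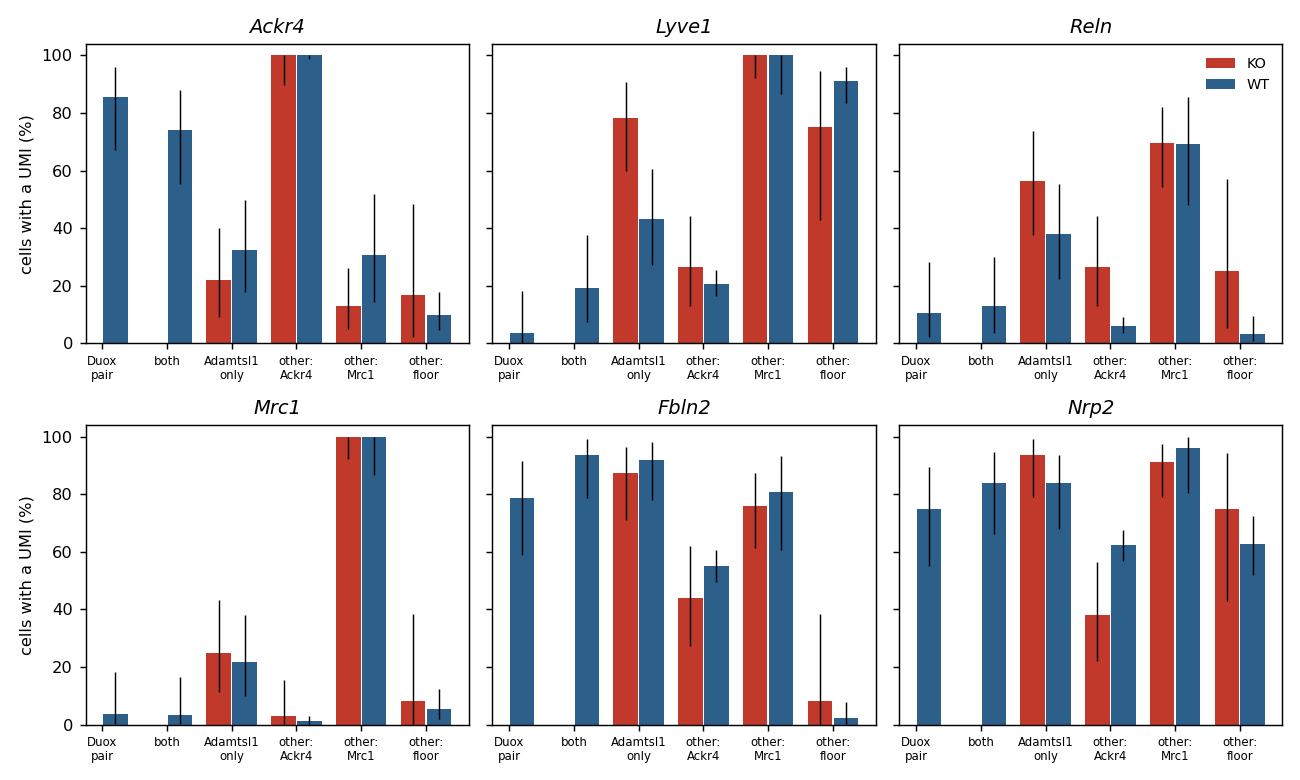
Bars give the percent of cells with a UMI of Ackr4, Lyve1, Reln, Mrc1, Fbln2 and Nrp2, with exact 95% intervals, in members with the Duox pair alone, with both kinds of rule transcript and with Adamtsl1 alone, and in the Ackr4, Mrc1 and floor-marker cells outside the members, KO left of WT; the first pair of KO groups, of 1 and 4 cells, is not drawn. Over the 3 WT member groups, from left to right, Ackr4 is found in fewer cells and Lyve1 in more, whereas Fbln2 and Nrp2 stay above 70% in each. Ackr4 and Mrc1 are at 100% in the cells chosen by them.

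The members were compared with the Prox1 cells outside the rule that had at least 2 Mrc1 UMIs or, failing that, at least 2 Ackr4 UMIs. There were 46 KO and 26 WT Mrc1 cells, and 34 KO and 324 WT Ackr4 cells, so the make-up of the comparison cells differed between the libraries. Fbln2 was higher in members than in either, with ratios to Ackr4 cells of 5.30 in KO and 3.36 in WT and to Mrc1 cells of 3.09 and 1.76. Adamts5 had ratios to Ackr4 cells of 6.48 and 2.82 and to Mrc1 cells of 3.83 and 1.75. Nrp2 was higher in KO members than in both, at 5.61-fold and 1.87-fold, and in WT 2.97-fold higher than in Ackr4 cells but close to Mrc1 cells, with a ratio of 1.07 (0.891 to 1.29). Slco2a1 had ratios to Ackr4 cells of 0.920 (0.632 to 1.34) in KO and 2.95 in WT. Lyve1 in members lay between the groups, with ratios to Ackr4 cells of 7.40 in KO and 3.69 in WT and to Mrc1 cells of 0.631 and 0.182.

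Members were close to each other in expression to a limited degree. In 30 principal components made without the rule genes, 27.4% of the 15 nearest neighbours of a KO member were members, against 14.0% for the other KO Prox1 cells and a share of 17.6% among all. For WT members the mean was 38.6%, against 11.9% for the other WT Prox1 cells and a share of 14.9%. Within WT it was 19.1% for members with the Duox pair alone, 53.3% for those with both kinds and 41.1% for those with Adamtsl1 alone. Members with 10 or more Igfbp5 UMIs reached 51.7% in KO and 76.0% in WT. Igfbp5 was not among the genes left out of the components, so these shares are not independent of how the cells were picked. WT members with the Duox pair alone thus had mostly other Prox1 cells around them.

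Between the genotypes, KO members had higher interferon-stimulated genes and lower immediate early genes than WT members, and both differences were also seen in the other Prox1 cells. Of 5827 genes, with the rule genes kept, 213 were at least 2-fold higher in KO members (3.66%) and 314 at least 2-fold lower (5.39%). In the other Prox1 cells, 270 of 9770 were at least 2-fold higher in KO (2.76%) and 405 at least 2-fold lower (4.15%). The median mitochondrial share, a sign of cell quality, also differed, at 10.4% in KO members against 6.71% in WT members, while B cells were at 9.38% in KO and 9.36% in WT. In cells with at most 10% the median log2 ratio between KO and WT members was 1.05 for interferon-stimulated and -0.62 for immediate early genes. Since the 2 libraries' members differ in their rule transcripts, values are also given for the members with Adamtsl1 alone.

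All 32 interferon-stimulated genes compared were higher in KO members, 16 of them at least 2-fold, with a median log2 ratio of 0.995, beside -0.03 over all genes. In the other Prox1 cells 30 of 36 were higher, with a median of 0.69, and in members with Adamtsl1 alone all 30 compared, with a median of 0.91. Iigp1, an interferon-inducible GTPase, stood at 1202 CPM in KO members, against 433 in WT members, a ratio of 2.78 (2.41 to 3.20), and its ratio in the other Prox1 cells was 1.19. It was found in 28 of 37 KO and 53 of 96 WT members. Ifit1, an interferon-induced protein that binds viral RNA, had a ratio of 4.07 (2.97 to 5.60), and Gbp7, a guanylate-binding protein, of 2.31 (1.87 to 2.83), with 2.54 and 1.65 in the other Prox1 cells. Some of these genes rested on few cells, since 1 KO member held 193 of the 239 Cxcl10 UMIs of the KO members. The median of the list was 0.76 without the top cell of each gene. In male members alone it was 0.70 and in female members alone 1.26.

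Immediate early genes were lower in KO members for 19 of 24 genes, 11 of them at least 2-fold, with a median log2 ratio of -0.95. In the other Prox1 cells all 26 were lower, with a median of -1.21, and in members with Adamtsl1 alone 13 of 23, with a median of -0.19. Egr1 stood at 493 CPM in KO members, against 2276 in WT members, a ratio of 0.216 (0.183 to 0.254), and its ratio was 0.441 in members with Adamtsl1 alone. Fos had a ratio of 0.555 in all members and 1.14 (1.02 to 1.28) in members with Adamtsl1 alone, and Nr4a1 of 0.396 and 2.58 (1.63 to 4.17). Of the 60 Nr4a1 UMIs in the KO members with Adamtsl1 alone, 71.7% lay in 1 cell. Fos and Nr4a1 thus lay below 1 over all members and above 1 among cells with the same rule transcripts. The median of the list in male members alone was -0.12 and in female members alone -2.23.

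Several single genes were lower in KO members and less so in the other Prox1 cells, and these differences between groups were not tested. Dkk2, a secreted regulator of Wnt signalling, had 0 UMIs in KO members, against 106 in WT members, a ratio of at most 0.0847. It was at most 0.0850 in members with Adamtsl1 alone and 0.588 in the other Prox1 cells. Rhbdf1, an inactive rhomboid protein, had 2 UMIs in KO members, against 79 in WT members, a ratio of 0.0758 (0.00902 to 0.283). It was 0.0542 (0.00132 to 0.334) in members with Adamtsl1 alone and 1.04 in the other Prox1 cells. Its WT UMIs lay in 42 of 96 members, so they did not come from a few cells. Car8 stood at 9.29 CPM in KO members, against 109 CPM in WT members, where 37 of 96 cells held it, a ratio of 0.0855 (0.0174 to 0.257). It was 0.0520 (0.00126 to 0.319) in members with Adamtsl1 alone and 0.486 in the other Prox1 cells. Slc16a9, a monocarboxylate transporter, was higher in KO members, with 29 UMIs, against 11 in WT members, a ratio of 7.89 (3.83 to 17.5). It was 5.82 (2.36 to 17.2) in members with Adamtsl1 alone and 1.107 in the other Prox1 cells.

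Cell cycle genes were lower in KO members for 9 of 10 genes compared, 6 of them at least 2-fold, with a median log2 ratio of -1.39, against -0.08 over 17 genes in the other Prox1 cells. Ccnd1, cyclin D1, stood at 300.5 CPM in KO members, against 727 in WT members, a ratio of 0.414 (0.331 to 0.512), and its ratio was 0.507 in members with Adamtsl1 alone and 0.937 in the other Prox1 cells. Pcna, the sliding clamp of DNA replication, had a ratio of 0.352. Mki67, a marker of dividing cells, ran the other way, with a ratio of 1.65 (1.08 to 2.51). Core autophagy genes were lower in 12 of 21 and higher in 9 of 21, close to an even split, with a median of -0.20, beside -0.03 over all genes. Ulk1, the kinase that starts autophagy, had 8 UMIs in KO members, against 80 in WT members, a ratio of 0.299, and Sqstm1, the receptor p62, had a ratio of 1.01.

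Ackr4 stood at 570 CPM in KO members, against 1690 in WT members, and Lyve1 at 4721 CPM, against 1571. The Ackr4 ratio was 0.337, 0.311 in the other Prox1 cells and 0.615 in members with Adamtsl1 alone. The Lyve1 ratio was 3.005, 3.18 in the other Prox1 cells and 1.28 in members with Adamtsl1 alone. Fbln2 and Adamts5 were 2.02-fold and 2.40-fold higher in KO members and 1.99-fold and 1.92-fold higher in those with Adamtsl1 alone, a group that holds both KO members rich in blood endothelial RNA. Without such cells Fbln2 stood at 1390 CPM in KO members, against 1020 CPM in WT members, and Adamts5 at 1184 CPM, against 555 CPM. Inhba, Vwf, Jam2 and Ly6a headed the list of genes higher in KO members by ratio, with 42, 42, 46 and 92 UMIs, against 0, 11, 7 and 7 in WT members. All 42 of Inhba, all 42 of Vwf, 45 of Jam2 and 83 of Ly6a lay in the 2 KO members with 100 or more blood endothelial UMIs.

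**Figure D5:**
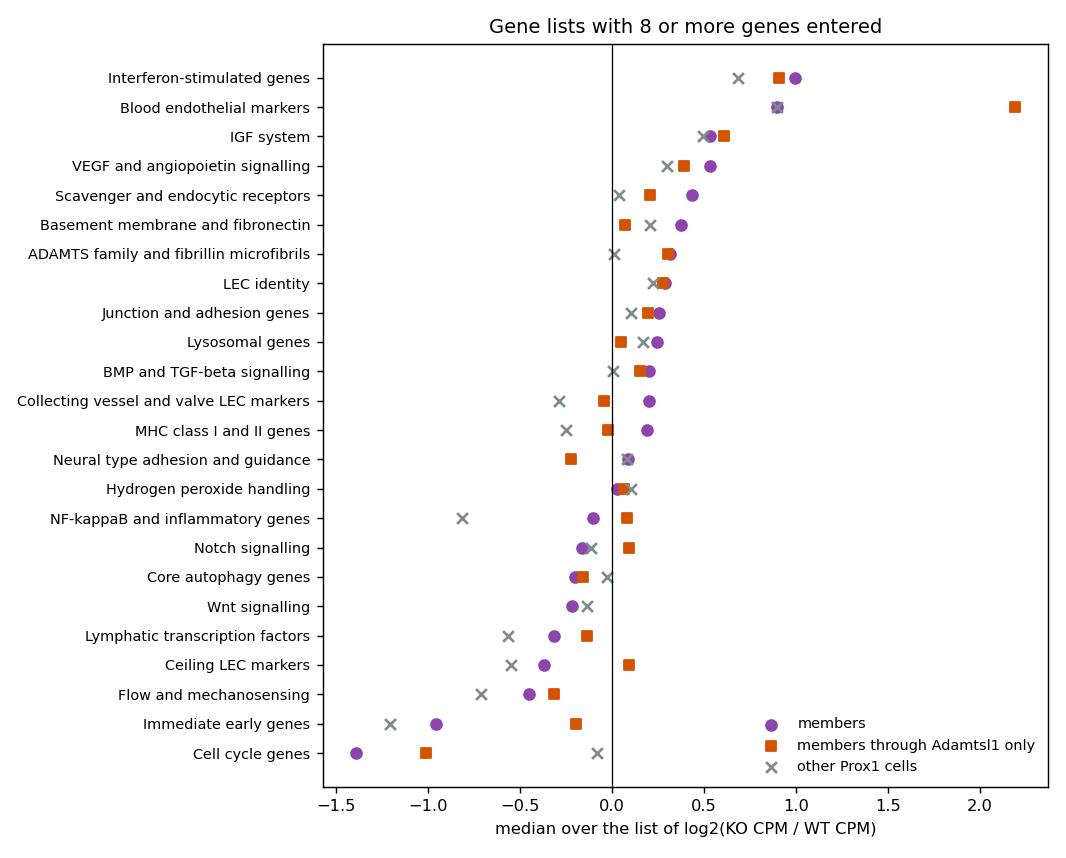
Median log2 ratios of KO over WT CPM (x axis) are drawn for gene lists with 8 or more genes compared, for all members, for members with Adamtsl1 alone and for the other Prox1 cells. Interferon-stimulated genes lie right of 0 in all 3, at 0.995, 0.91 and 0.69, and immediate early genes left of 0, at -0.95, -0.19 and -1.21, while cell cycle genes lie at -1.39, -1.01 and -0.08; the blood endothelial list is at 2.19 in members with Adamtsl1 alone, where the 2 KO cells rich in that RNA fall.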

How the data were processed

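Cells of 2 mouse libraries, ATG5 LEC-KO and WT, were read on the BD Rhapsody platform. Per the file headers, the deposited counts are molecules per barcode and gene after UMI error correction by the BD Rhapsody WTA Analysis Pipeline 1.11, with intronic reads kept, and the submitters' processing notes name mm10. Unfiltered barcodes were used, with 111135 barcodes and 45647078 reads in KO and 119938 barcodes and 48832612 reads in WT. Cells needed 1200 UMIs, 200 genes and at most 25% mitochondrial UMIs. The members and gene lists were chosen with earlier results of these data known. Of 614 symbols looked up, 606 were in the files.

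UMIs were summed per library and group. A gene was compared where equal levels would give 10 UMIs in each group, and was counted as higher or lower past 2-fold. Rule genes were kept in the counts over all genes and left out of the counts of gene lists and of the ranked genes. With 1 library per genotype there is no test: intervals are exact (Poisson for CPM, Clopper-Pearson for shares, conditional binomial for ratios), at 95%, and cover counting error only. UMIs of one cell are not independent, so these intervals err on the narrow side. For ratios, a group with a count of 0 was given 3 UMIs. Levels are not corrected for gene length and are compared between cells, not between genes. The ratio and its interval were tried on simulated group sums with known folds that varied by counting error alone. That trial held no uneven cells, so it does not test the intervals where UMIs gather in a few cells. Doublets were called with Scrublet in Scanpy 1.11.5 (expected rate 6%) and kept, with their removal as an alternative. Python 3.11.15, NumPy 2.4.6, pandas 2.3.3, SciPy 1.17.1, scikit-learn 1.9.0 and matplotlib 3.10.9 were used. Mitochondrial, ribosomal protein, immunoglobulin, T cell receptor and sex-linked genes were not named. Named genes were the 25 higher and 15 lower that passed 2-fold in both libraries with intervals clear of 1 and ranked highest by the smaller of both libraries' absolute log2 ratios, the 12 each way between KO and WT members with intervals farthest from 1, the rule genes and markers, and examples from 36 lists. H19, Macrod2 and the genes of few cells were singled out after their values were seen. Alternatives covered the cell limits, the rule genes, doublets, sex, intermediate depth, scaling, weighting and the low-count limit. Some genes that this rule names are not reported here.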

Additional observations from a re-analysis of the deposited data

Results flagged for a closer look

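H19 and Macrod2 lay on opposite sides in the libraries when members were set against the other Prox1 cells. H19, an imprinted non-coding RNA, had a log2 ratio of -3.49 in KO, with 22 UMIs in 4 members against 977 in the other Prox1 cells, and of 1.65 in WT, with 111 UMIs against 167, of which 57 of the 111 lay in 1 member. Macrod2, a hydrolase of ADP-ribose marks, had a log2 ratio of 1.14 in KO, with 20 UMIs against 36, of which 10 of the 20 lay in 1 member, and of -1.35 in WT, with 15 against 181. With 1 library per genotype the difference between the libraries was not tested.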

How the results depend on the processing

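No paired analysis was possible because each genotype has 1 library, and for the same reason no replicate could be left out. Of 1967 gene values under the alternatives, 1655 stayed within the counting interval, 291 left it in the same direction and 21 reversed. Some of these values could not change, so the tally overstates how far they were tried. The low-count limits alter only which genes are counted, and dropping the limit on Madcam1, Coch and Ccl20 added 0 members. Removing Scrublet calls took out 0 members, so ratios of KO over WT members stayed as they were. The count of genes higher in both libraries was 22 at a mitochondrial limit of 10%, 15 in male cells, 17 in members with no Duox pair UMI, 19 without the top cell of each gene, 67 at an expected 3 UMIs and 19 at 30. The count lower in both was 26 in male cells, 31 in female cells, 29 without floor-marker or B and T cell UMIs in the comparison cells, 183 at an expected 3 UMIs and 14 at 30. Genes higher in KO members numbered 123 at the 10% limit, 122 in male cells, 137 without the top cell, 631 at an expected 3 UMIs and 49 at 30, and lower ones 967 at 3 and 70 at 30. The share of members in WT was 9.75% at a rule sum of 3, 9.13% by Adamtsl1 alone and 18.0% in female cells. By Duox2 and Duoxa2 alone it was 1.43% in KO and 7.28% in WT, too few in KO for a comparison. The median log2 of immediate early genes between KO and WT members was -0.50 by Adamtsl1 alone, -0.12 for male members, -2.23 for female members and -0.19 for members without Duox pair UMIs.

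Reversed log2 ratios of members over other Prox1 cells are given here, and their cause was not tested. In KO they were -0.0577 for Lpl and -0.37 for Nrcam at the 10% limit, -0.38 for Lpl, -0.14 for Nrcam and -0.82 for Ccl2 in male cells, and -0.00586 for Palld in female cells. Palld was at -0.41 without cells of 100 or more blood endothelial UMIs, and Ccl2 at -1.04 in cells of 4000 to 16000 UMIs and -0.48 without its top cell. In WT, Rsad2 was at -2.32 at a rule sum of 3, -0.50 by the Duox pair alone, -2.21 by Adamtsl1 alone and -0.92 in cells of that depth. Ccl2 in WT was at -0.34 by the Duox pair alone, -0.27 in cells of that depth and -1.92 in female cells. Cmpk2 in WT was at -0.000652 by Adamtsl1 alone and -0.26 in female cells. Col5a2 in WT was at -1.18 in female cells and -0.66 with no Duox pair UMI, and Emcn at -0.41 with no Duox pair UMI. The settings on the top cell, on Duox pair UMIs and on blood endothelial UMIs were chosen after seeing the data. The 37 KO members limit what can be seen of genes with few UMIs.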
